A study of Mus musculus with 24 samples.

Results

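The expression of 34 autophagy and lysosome genes was followed in TM3 cells, a mouse Leydig cell line, after a nanosecond pulsed electric field (nsPEF) or a sham treatment. The genes were chosen by name, from the core machinery that builds autophagosomes to the enzymes and membrane proteins of the lysosome. Through the RefSeq transcript of each array probe they were found on 48 of the 56605 probes, as 34 of 23787 genes with a symbol, and 13 of them had several probes. The nsPEF cells had received 80 pulses of 60 ns at 14 kV/cm over 180 s in suspension, and the sham cells had been handled alongside them without pulses. Per the paper, the cells had been detached, washed in PBS and placed in a binding buffer before exposure. RNA was taken at 0, 4 and 24 h, which gave the groups S0, S4 and S24 for sham and E0, E4 and E24 for nsPEF, each with 4 biological replicates on an array of its own. The paper proposes that the long preparation may have stressed the cells at 0 h, and describes the later hours as standard culture. Time and the change from preparation to culture cannot be told apart. All groups are the same single established line, so the replicates do not cover differences between animals.

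Autophagy encloses cytoplasm in a double membrane and delivers it to lysosomes for digestion. A kinase complex with Ulk1, Ulk2 and Atg13 starts the process, a lipid kinase complex with Becn1 and Atg14 marks the growing membrane with a phosphoinositide, and the WIPI proteins read that mark. A ubiquitin-like conjugation system then attaches proteins of the LC3 and GABARAP families to the membrane, and lysosomal cathepsins and glycosidases break down the cargo after fusion. The transcription factors Tfeb and Tfe3 bind a palindromic DNA motif, called the CLEAR element, in the promoters of many of these genes. In Leydig cells lysosomes also release cholesterol, the precursor of testosterone, from lipoproteins.

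Each value is a signal on the log2 scale relative to its own array's 75th percentile, so a difference of 1 is a 2-fold change relative to that percentile. The probe with the highest mean stood for its gene, and levels of different genes cannot be compared on this scale. That probe was well above background on all 24 arrays for 33 members and on 18 arrays for Ctsk. All probes were tested together with limma, and a gene was called where its p-value, adjusted by Benjamini-Hochberg over all tested probes, was under 0.05. In bulk RNA, fewer cells of a type and less RNA per cell cannot be told apart. Of the Leydig cell markers, Star, Cyp17a1 and Nr5a1 were well above background on all 24 arrays, whereas Cyp11a1, Hsd17b3, Hsd3b1, Hsd3b6 and Lhcgr were so on 0 arrays. The name of the line comes from the labels and the paper, and of the 8 Leydig markers with a probe only those 3 were detected throughout. On all 24 arrays 7 of 8 fibroblast and stroma markers, 3 of 7 Sertoli markers (Wt1, Sox9 and Rhox5), 3 of 7 macrophage markers (Cd68, Csf1r and Itgam) and 2 of 7 germ cell markers were above background as well. Each slide carried the 8 arrays of 1 time point, on which the sham and nsPEF arrays lay in separate rows. Time and slide, and treatment and row, cannot be told apart.

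Promoter windows in the RefSeq table (build GRCm38.p6, 250 bases before to 50 after each transcription start) were held for 28 of the 34 members. The E-box CACGTG, which reads the same on both strands, was present in the windows of 10 of the 28 members (35.7%) and in those of 8.09% of the 27025 genes in the table. The CLEAR core TCACGTGA, which contains that E-box, occurred in 5 members (17.9%) and in 1.12% of all genes. The whole CLEAR palindrome, which extends that core by a base at each end, occurred in 0 members, and in 0.37% of all genes. A match is a sequence of letters and not a bound site. The 250 bases before the start are given for the 5 members with the CLEAR core, Mcoln1, Atg3, Ctsd, Gla and Ctsa, and for Lamp1, which had 4 E-boxes. Each is read 5′ to 3′ along the gene, with CACGTG, or TCACGTGA where it is complete, in capitals.
Mcoln1: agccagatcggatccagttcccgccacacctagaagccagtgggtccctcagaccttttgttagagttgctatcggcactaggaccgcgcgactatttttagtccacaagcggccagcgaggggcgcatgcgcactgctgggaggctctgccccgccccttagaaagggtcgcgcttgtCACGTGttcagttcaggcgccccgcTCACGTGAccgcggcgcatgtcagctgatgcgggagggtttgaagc
Atg3: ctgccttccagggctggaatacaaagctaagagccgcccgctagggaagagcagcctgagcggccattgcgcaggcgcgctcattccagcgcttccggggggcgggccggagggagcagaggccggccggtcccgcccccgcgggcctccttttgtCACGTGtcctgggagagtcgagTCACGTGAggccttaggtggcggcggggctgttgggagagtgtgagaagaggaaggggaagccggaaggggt
Lamp1: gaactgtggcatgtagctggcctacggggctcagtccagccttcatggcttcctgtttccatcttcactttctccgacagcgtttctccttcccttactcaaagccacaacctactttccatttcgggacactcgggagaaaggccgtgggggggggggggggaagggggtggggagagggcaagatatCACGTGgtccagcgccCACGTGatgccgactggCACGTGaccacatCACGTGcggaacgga
Ctsd: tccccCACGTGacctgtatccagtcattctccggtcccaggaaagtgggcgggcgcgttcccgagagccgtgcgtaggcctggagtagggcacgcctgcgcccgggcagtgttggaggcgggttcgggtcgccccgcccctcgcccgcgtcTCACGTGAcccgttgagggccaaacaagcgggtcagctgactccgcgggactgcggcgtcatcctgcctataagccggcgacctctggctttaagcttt
Gla: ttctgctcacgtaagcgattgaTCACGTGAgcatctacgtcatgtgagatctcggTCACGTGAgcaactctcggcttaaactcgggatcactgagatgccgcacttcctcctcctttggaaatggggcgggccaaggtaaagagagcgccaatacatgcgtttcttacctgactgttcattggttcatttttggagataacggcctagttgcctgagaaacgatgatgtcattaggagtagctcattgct
Ctsa: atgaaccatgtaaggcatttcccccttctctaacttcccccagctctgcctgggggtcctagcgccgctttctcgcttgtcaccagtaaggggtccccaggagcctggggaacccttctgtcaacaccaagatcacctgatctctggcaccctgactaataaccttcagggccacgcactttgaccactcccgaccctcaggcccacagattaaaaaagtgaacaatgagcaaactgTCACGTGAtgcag
These windows lie at chr8:3500269-3500518 (+ strand) for Mcoln1, chr16:45158579-45158828 (+ strand) for Atg3, chr8:13158911-13159160 (+ strand) for Lamp1, chr7:142387828-142388077 (- strand) for Ctsd, chrX:134601006-134601255 (- strand) for Gla and chr2:164833523-164833772 (+ strand) for Ctsa. For Ctsa the window is that of the second of its 2 starts in the table. The E-boxes of Lamp1 began 61, 45, 28 and 15 bases before the start, and those of Mcoln1 71 and 45 bases before it.

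As among all tested genes, some of the autophagy genes of sham cells rose within 4 h and others fell. The steps of the pathway did not move together. In the conjugation system 5 of 6 members rose, led by Atg16l1 at 2.83-fold, while all 3 members of the initiation complex and both WIPI genes fell, led by Wipi1. Tfeb fell, and so did Mcoln1 and Ctsk, whereas Lamp1, Ctsl, Ctsd and Hexa rose. In all, 24 of 34 members were called at 4 h against 0 h, 13 higher and 11 lower. This share of 70.6% lay near the 65.7% of all 16843 tested genes that were called (30.5% higher and 35.2% lower), and the median size of the difference was 0.28 for the members and 0.48 for all genes. The median difference was -0.042 for the members and -0.049 for all genes.

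Counts by direction depended on the scaling. With quantile normalization 8 members were called higher and 15 lower at 4 h, and with the 75th percentile taken over only those probes that were above background on all 24 arrays, 8 rose and 18 fell. The roles kept their counts better: 5 conjugation enzymes were called higher and 1 lower, and all 3 initiation genes lower, under each of 5 other scalings and background corrections. Under these, the sign of a called member at 4 h in sham cells turned only for Ctsb, with the percentile over probes above background on all arrays. The rises of Map1lc3b and Gabarapl2 were not called under either of the scalings named first. Over all 24 arrays a change with time was called for 30 of 34 members, beside 84.3% of all genes, and not for Ctsz, Gla, Lamp2 and Tfe3.

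**Figure D1:**
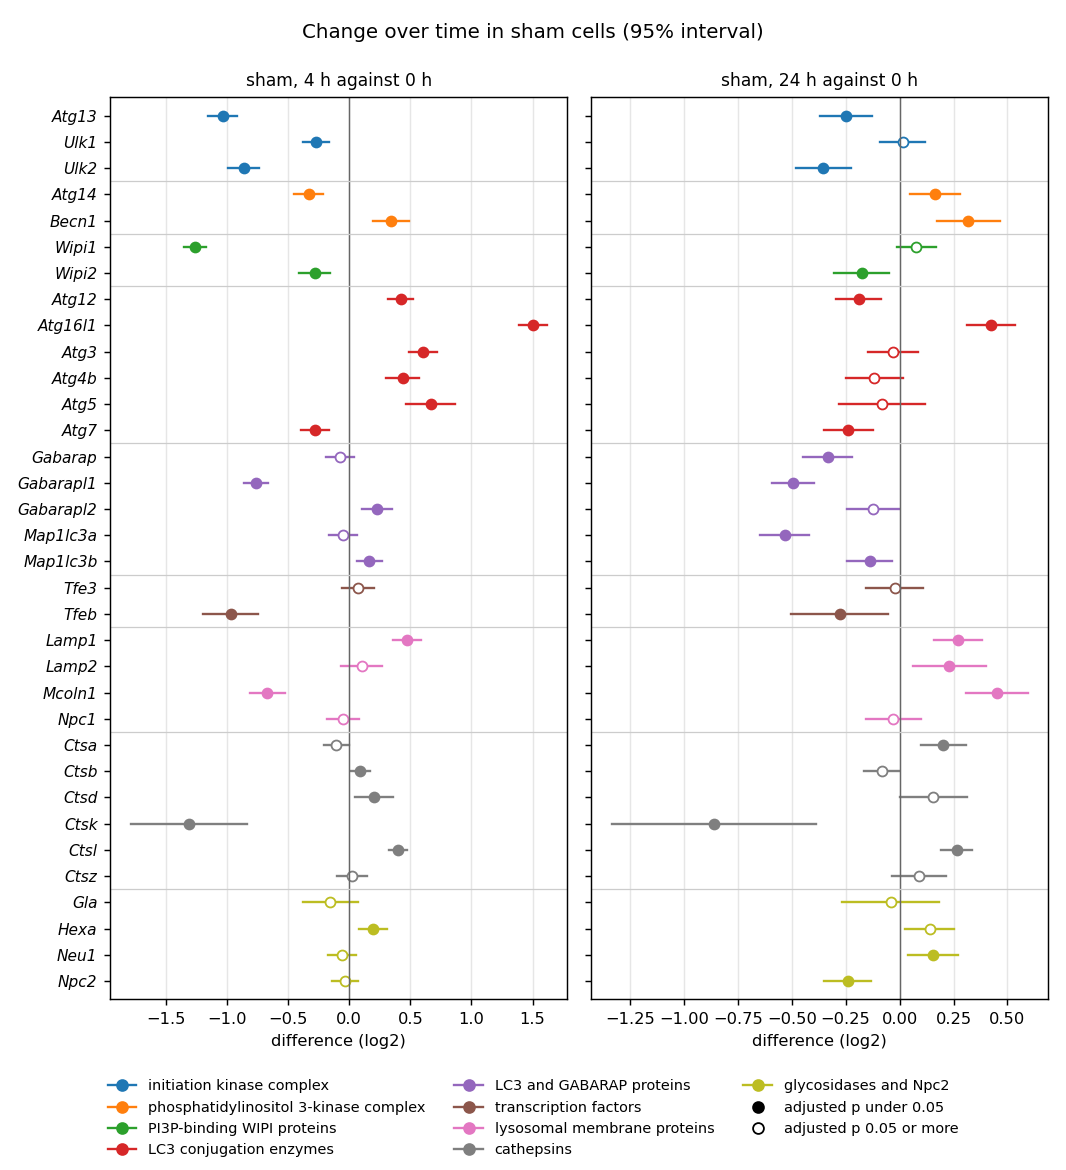
Differences in sham cells between 4 h and 0 h (left) and between 24 h and 0 h (right) for the 34 members, on the log2 scale relative to each array's 75th percentile, with 95% confidence intervals from limma; the x axes differ. Filled points have an adjusted p under 0.05, and colours and lines mark the roles. At 4 h Atg16l1 lies farthest to the right and Ctsk and Wipi1 farthest to the left, and at 24 h most differences are smaller.

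Atg13, the scaffold of the initiation complex, fell in sham cells from 2.42, 2.50, 2.39 and 2.53 at 0 h to 1.48, 1.35, 1.34 and 1.54 at 4 h, and was at 2.17, 2.15, 2.19 and 2.35 at 24 h. The 4 h arrays lay far below the others, and the 24 h arrays lay just below those of 0 h without overlap. The fall at 4 h was -1.03 ± 0.058 (SE), adjusted p = 3.4e-12, and at 24 h the difference to 0 h was -0.25 ± 0.058 (SE), adjusted p = 0.0022. Ulk2, a kinase of the same complex, had values of -0.29, -0.10, -0.16 and -0.17 in S0, -1.05, -1.13, -1.05 and -0.94 in S4 and -0.52, -0.49, -0.57 and -0.56 in S24. Its arrays fell into 3 separate ranges, lowest at 4 h, with differences to 0 h of -0.86 and -0.35 (adjusted p = 1.37e-10 and 0.000124). A second Ulk2 probe fell by 0.83 at 4 h. Ulk1, the other kinase, fell by 0.27 at 4 h (adjusted p = 9.02e-05) and at 24 h was back at 2.61 ± 0.054 (SD, n = 4), beside 2.59 ± 0.066 at 0 h.

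Wipi1, which binds the phosphoinositide mark, had values of 2.60, 2.59, 2.50 and 2.66 in S0, 1.28, 1.29, 1.34 and 1.38 in S4 and 2.59, 2.71, 2.70 and 2.66 in S24. The 4 h arrays lay more than 1 log2 unit below both other times, while those of 0 h and 24 h overlapped. The fall was 2.4-fold (-1.26 ± 0.044 (SE), adjusted p = 2.12e-15), the later rise 2.54-fold, and a second, dimmer Wipi1 probe fell by 0.54 at 4 h. Wipi2, which recruits the conjugation complex to the membrane, fell by 0.28 at 4 h and was 0.18 lower at 24 h (adjusted p = 0.0004 and 0.0267). The lipid kinase subunits moved apart at 4 h. Atg14, which directs the complex to autophagy, fell by 0.33 and was 0.16 higher at 24 h (adjusted p = 3.12e-05 and 0.0263). Becn1, the scaffold subunit, had values of 0.40, 0.46, 0.47 and 0.65 in S0, 0.62, 0.77, 0.96 and 1.00 in S4 and 0.74, 0.86, 0.87 and 0.79 in S24. Its 4 h arrays spread widely and 1 of them lay within the range of 0 h, yet the differences to 0 h of 0.34 at 4 h and 0.32 at 24 h were both called (adjusted p = 0.000284 and 0.00137).

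The conjugation enzymes rose and then returned. Atg16l1, the subunit that places the conjugating complex on the membrane, had values of 1.57, 1.54, 1.51 and 1.48 in S0, 3.08, 3.13, 2.99 and 2.91 in S4 and 1.94, 1.92, 1.98 and 1.95 in S24. The 3 times did not overlap, and part of the rise remained at 24 h. The differences to 0 h were 1.50 ± 0.053 (SE), adjusted p = 3.12e-15, at 4 h, and 0.42 ± 0.053 (SE), adjusted p = 3.53e-06, at 24 h. Atg5, which is joined to Atg12 in that complex, had values of 1.78, 1.76, 1.57 and 1.81 in S0, 2.55, 2.45, 2.43 and 2.14 in S4 and 1.76, 1.67, 1.71 and 1.45 in S24. All 4 h arrays exceeded the others, and those of 0 h and 24 h overlapped. The rise at 4 h was 0.66 ± 0.095 (SE), adjusted p = 4.07e-06. Atg3, the enzyme that transfers LC3 to its lipid, had values of 2.60, 2.63, 2.65 and 2.63 in S0, 3.23, 3.18, 3.19 and 3.31 in S4 and 2.59, 2.57, 2.53 and 2.69 in S24, again with the 4 h arrays apart and above. Its rise was 0.60 ± 0.055 (SE), adjusted p = 6.8e-09, and its fall from 4 h to 24 h was 0.63. Atg12 rose by 0.42 at 4 h and was 0.19 lower than the start at 24 h. Atg4b, the protease that trims LC3 and removes it from membranes, rose by 0.44 on its brighter probe (adjusted p = 5.02e-06) but gave -0.10 on the dimmer one (adjusted p = 0.187). The exception was Atg7, the activating enzyme of the system, which fell by 0.28 at 4 h and by 0.24 at 24 h (adjusted p = 0.000154 and 0.00183), and by 0.72 at 4 h on its second probe.

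The LC3 and GABARAP genes, whose proteins coat the autophagosome, were lower at 24 h. Gabarapl1 had values of 6.39, 6.41, 6.33 and 6.36 in S0, 5.67, 5.61, 5.64 and 5.52 in S4 and 5.87, 5.85, 5.90 and 5.90 in S24. It was lowest at 4 h and in between at 24 h, with no overlap among the times (-0.76 ± 0.046 (SE), adjusted p = 1.29e-11, at 4 h). Map1lc3a had values of 0.47, 0.30, 0.49 and 0.52 in S0, 0.36, 0.36, 0.43 and 0.42 in S4 and -0.15, -0.13, -0.13 and 0.042 in S24. It overlapped at 0 h and 4 h and lay below both at 24 h, by -0.53 ± 0.053 (SE), adjusted p = 1.7e-07, against 0 h. Map1lc3b and Gabarapl2 rose by 0.16 and 0.23 at 4 h (adjusted p = 0.00692 and 0.00202). At 24 h Gabarap was 0.33 and Map1lc3b 0.14 lower than at 0 h (adjusted p = 6.36e-05 and 0.0329). The second, dimmer Map1lc3b probe had means of 2.67 in S0 and 2.60 in S24. In all, 4 of 5 genes of these families were called lower on their main probes, beside 21.5% of all tested genes (38.8% in either direction). With scaling on the spike-in RNA these 4 differences turned positive, as described with the other 24 h values.

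Tfeb, the transcription factor, had values of -1.54, -1.76, -1.70 and -1.66 in S0, -2.55, -2.74, -2.57 and -2.67 in S4 and -2.12, -1.98, -1.99 and -1.68 in S24. All 4 h arrays lay below the rest, and those of 24 h overlapped with 0 h in 1 array. The fall at 4 h was 1.96-fold (-0.97 ± 0.11 (SE), adjusted p = 1.31e-07), and all 3 Tfeb probes fell. Tfe3, its relative, stayed at 3.27 ± 0.076 at 0 h, 3.34 ± 0.097 at 4 h and 3.25 ± 0.071 at 24 h (SD, n = 4), and passed no test between times in sham cells.

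**Figure D2:**
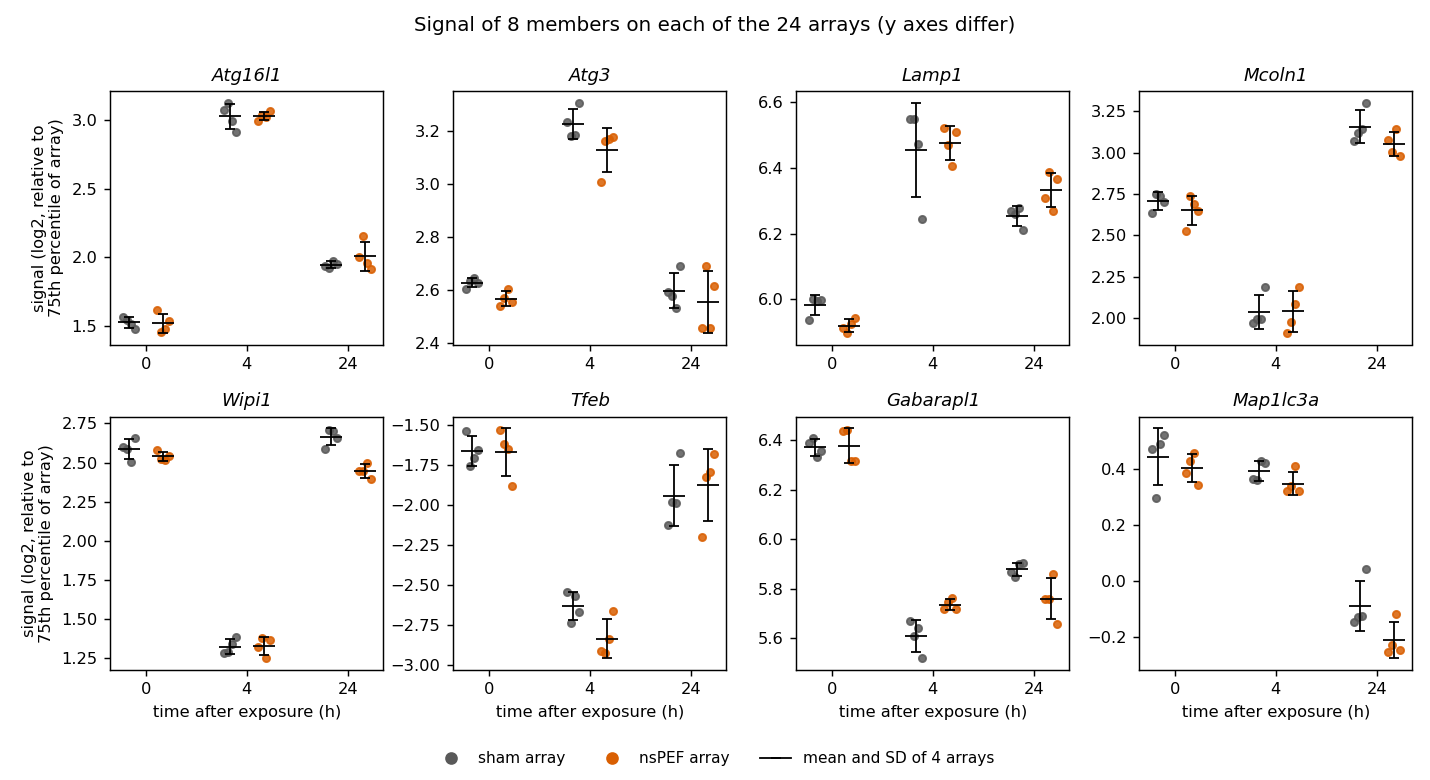
Signal of 8 members on each array at 0, 4 and 24 h, log2 relative to each array's 75th percentile; points are arrays (grey, sham; orange, nsPEF), lines the mean and SD of 4. The y axes differ. Atg16l1, Atg3 and Lamp1 are highest and Mcoln1, Wipi1, Tfeb and Gabarapl1 lowest at 4 h in both treatments, and Map1lc3a is lowest at 24 h.

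Among the lysosomal membrane proteins, Lamp1, an abundant glycoprotein of the lysosomal coat, had values of 5.94, 6.00, 5.99 and 6.00 in S0, 6.55, 6.55, 6.47 and 6.25 in S4 and 6.27, 6.26, 6.28 and 6.21 in S24. It was higher on every array at both later times, although replicate 4 of S4 lay below its group and within the range of S24. The rises were 0.47 ± 0.054 (SE), adjusted p = 1.91e-07, at 4 h, and 0.27 ± 0.054 (SE), adjusted p = 0.000512, at 24 h, and the second probe rose by 0.57 and 0.36. Mcoln1, the calcium channel of the lysosome, went the other way first, with 2.64, 2.75, 2.74 and 2.70 in S0, 1.97, 1.99, 1.99 and 2.19 in S4 and 3.07, 3.12, 3.14 and 3.30 in S24. The 3 times did not overlap, with 4 h lowest and 24 h highest. The differences to 0 h were -0.67 ± 0.068 (SE), adjusted p = 3.58e-08, at 4 h, and 0.45 ± 0.068 (SE), adjusted p = 3.1e-05, at 24 h, and the rise between 4 h and 24 h was 2.18-fold. Lamp2, the partner of Lamp1, was 0.23 higher at 24 h (adjusted p = 0.0311), with overlapping arrays. Npc1, the membrane protein that passes cholesterol out of the lysosome, gave -0.051 and -0.03, and neither passed the test.

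The cathepsins had no common direction. Ctsl, a cysteine protease, rose by 0.40 at 4 h and was 0.26 higher at 24 h (adjusted p = 3.35e-09 and 5.62e-06). Its second probe, which was well above background on 20 arrays, gave -1.23 and -2.43 instead (adjusted p = 0.000405 and 4.57e-07), so the gene's probes disagreed. Ctsd, the aspartic protease, rose by 0.20 and Ctsb by 0.092 at 4 h (adjusted p = 0.0253 and 0.0464). Ctsa, which also shields Neu1 from degradation, was 0.20 higher at 24 h (adjusted p = 0.00306), and Ctsz passed no test between times. Ctsk, the collagen-degrading cathepsin and the dimmest member, had values of -3.69, -3.21, -3.85 and -3.33 in S0, -5.28, -4.69, -4.83 and -4.53 in S4 and -4.36, -4.63, -4.23 and -4.31 in S24. Both later groups lay below 0 h without overlap, and the probe was well above background on 4, 3 and 4 of the sham arrays at 0, 4 and 24 h. Its falls were -1.31 ± 0.23 (SE), adjusted p = 4.28e-05, at 4 h, and -0.86 ± 0.23 (SE), adjusted p = 0.0055, at 24 h.

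Of the remaining enzymes, Hexa, the alpha subunit of hexosaminidase, rose by 0.19 at 4 h (adjusted p = 0.00427). Neu1, the lysosomal sialidase, was 0.16 higher at 24 h (adjusted p = 0.0353). Npc2, which hands cholesterol to Npc1, was 0.24 lower at 24 h (adjusted p = 0.00115). Gla, alpha-galactosidase, passed no test between times, and its arrays spread most at 4 h, with 6.78 ± 0.30 (SD, n = 4).

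At 24 h most of the 4 h pattern in sham cells had receded, and a mixed remainder was left. Against 0 h, 21 members were called, 9 higher and 12 lower, and this share of 61.8% stood beside 38.8% of all tested genes (17.3% higher and 21.5% lower). The 4 largest rises were those of Mcoln1, Atg16l1, Becn1 and Lamp1, and the 4 largest falls those of Ctsk, Map1lc3a, Gabarapl1 and Ulk2. Between 4 h and 24 h, 23 members were called, 10 higher and 13 lower, beside 65.4% of all genes (33.0% higher and 32.4% lower). Wipi1, Mcoln1, Atg13, Tfeb, Ulk2 and Atg14 rose by 1.34, 1.12, 0.79, 0.69, 0.51 and 0.50, in that order. Atg16l1, Atg5, Atg3, Atg12 and Atg4b fell by 1.08, 0.75, 0.63, 0.61 and 0.55. The members with the largest changes by 4 h, other than Ctsk, thus moved back. Both comparisons use the same 4 h arrays, so for members picked by large changes at 4 h opposite signs are favoured in advance. With the spike-in RNA Atg3, Atg12 and Atg4b gave 0.026, 0.049 and 0.10. Directions at 24 h held only relative to the 75th percentile. Under scaling on the spike-in RNA the median of all genes at 24 h was 0.71 above 0 h in sham cells and 0.58 above it in nsPEF cells. In sham cells 33 members were then called higher and 0 lower, beside 29312 of all 37687 tested probes called in either direction. In sham cells 11 of the 12 members called lower at 24 h turned positive (Atg12, Atg13, Atg7, Gabarap, Gabarapl1, Map1lc3a, Map1lc3b, Npc2, Tfeb, Ulk2 and Wipi2). The median of the members relative to that of all genes was -0.030 in both scalings. Between 4 h and 24 h the split was 14 higher and 8 lower with quantile normalization, 17 and 8 with the percentile over probes above background on all arrays, and 28 and 1 with the spike-in RNA, where 1 conjugation enzyme was called higher and 1 lower.

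**Figure D3:**
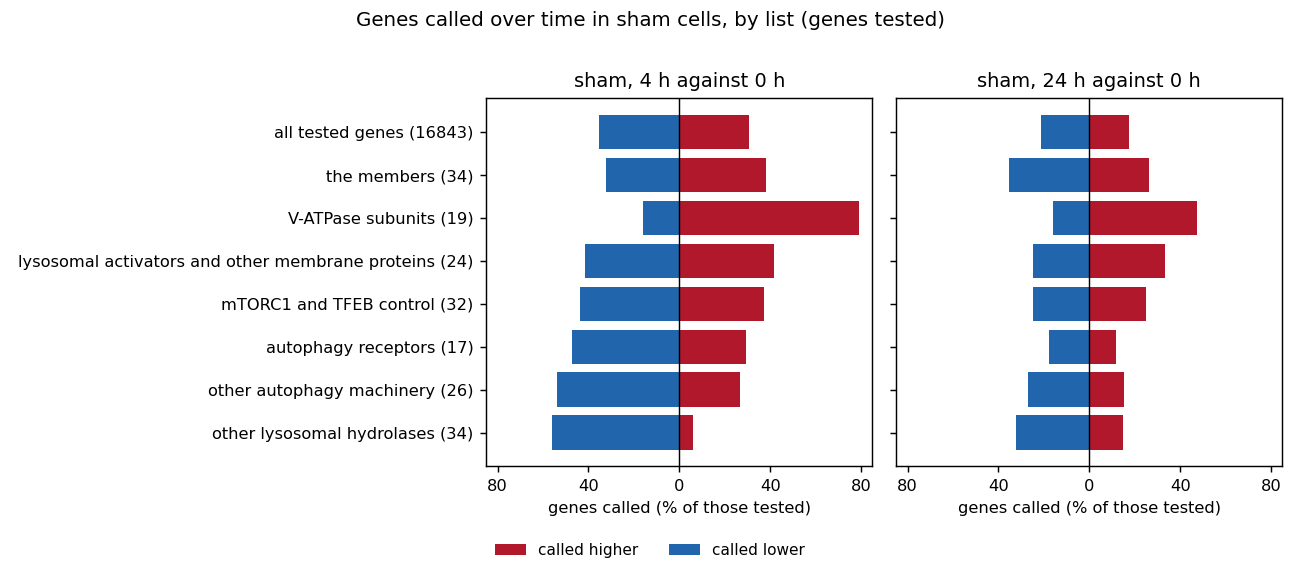
Genes called in sham cells at 4 h (left) and 24 h (right) against 0 h, as a percentage of those tested in each list (number tested in brackets); red bars to the right are called higher and blue bars to the left lower, adjusted p under 0.05. At 4 h 15 of 19 subunits of the V-ATPase are called higher, and 19 of 34 other lysosomal hydrolases lower.

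The rest of the pathway, from lists of other genes of the same processes, was also divided at 4 h in sham cells. The shares called, from 61.8% of the other hydrolases to 94.7% of the V-ATPase genes, stand beside 65.7% of all tested genes (30.5% higher and 35.2% lower), and no list was tested against them. Of the subunits of the V-ATPase, the proton pump of the lysosome, 15 of 19 rose and 3 fell (median difference 0.53). Atp6v1h rose by 1.19 and Atp6v0a2 by 1.13, and Atp6v0a1 and Tcirg1 fell by 0.48 and 0.44. Between 4 h and 24 h 14 V-ATPase genes fell and 3 rose, but with the spike-in RNA 2 fell and 8 rose. Of the other lysosomal hydrolases, 19 of 34 fell and 2 rose (median -0.27), with the lipase Lipa lower by 1.19 and the sulphatase Arsa by 1.18, and with Ctsf and Dpp7 higher by 1.01 and 0.36. Of these hydrolases, 20 rose and 2 fell from 4 h to 24 h. Between these times 65.4% of all tested genes were called, 33.0% higher and 32.4% lower. With the spike-in RNA the median difference of all genes from 4 h to 24 h was 0.69. Under the 5 other scalings and corrections 14 or 15 V-ATPase genes rose and 3 fell at 4 h, and 1 or 2 of these hydrolases rose while 14 to 23 fell.

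Of the other autophagy machinery 7 of 26 genes rose and 14 fell at 4 h (median -0.26). Here Wdr45, a relative of the WIPI genes, and Atg16l2, a relative of Atg16l1, fell by 1.41 and 1.06, while Wdr45b and Tmem41b rose by 0.92 and 0.83. The autophagy receptors, which link cargo to LC3, were called higher for 5 and lower for 8 of 17. Calcoco1 fell by 2.09 and Nbr1 by 1.64, and Sqstm1 (p62) and Tollip rose by 1.08 and 0.91. Of the lysosomal activators and other membrane proteins 10 of 24 rose, led by Ostm1 (1.20) and M6pr (0.86), and 10 fell, led by Tmem175 (-1.65) and Ctns (-0.90). Of the genes that control mTORC1 and Tfeb 12 of 32 rose, led by Fnip2 (1.61) and Mlst8 (1.07), and 14 fell, led by Castor1 (-2.12, well above background on only 2 of the 4 S4 arrays) and Sesn1 (-2.09).

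Promoter letters and direction were set side by side without a test. Of the 10 members with an E-box 5 were called higher and 3 lower at 4 h in sham cells (median 0.047), and of the 18 with a window but no E-box 4 were higher and 8 lower (median -0.068). At 24 h the counts were 5 and 1 with an E-box (median 0.16) and 2 and 9 without (median -0.13). Of all tested genes 30.5% were called higher and 35.2% lower at 4 h, and 17.3% and 21.5% at 24 h. Genes other than the members were not split by the motif. These counts used the 75th percentile, and the directions at 24 h carry the limit given for the spike-in RNA.

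The time courses of nsPEF and sham cells were set side by side. At 4 h against 0 h 26 members were called in them, 13 higher and 13 lower, beside 67.8% of all genes (34.2% higher and 33.6% lower). With quantile normalization 8 were higher and 15 lower, and with the spike-in RNA 15 higher and 9 lower. All 24 members called in sham cells were also called in nsPEF cells in the same direction, which is 100% of the sham and 92.3% of the nsPEF list, beside 88.6% and 85.9% for all tested genes. No arrays were shared between the 2 comparisons, but slides were. The paper also states that the tests of a biological replicate used a shared cell suspension, so the 2 comparisons were not fully separate. The remaining 2 of the nsPEF list were Npc1 and Ctsa, lower by 0.29 and 0.18 (adjusted p = 0.000385 and 0.00326). In nsPEF cells Atg16l1 rose by 1.51 and Lamp1 by 0.56 at 4 h, and Wipi1, Atg13, Tfeb and Ctsk fell by 1.21, 1.25, 1.17 and 1.37. The Ctsk probe was well above background on 4, 2 and 1 of the nsPEF arrays at 0, 4 and 24 h, so its later values lie near the limit of detection. Over 24 h against 0 h, 16 members were called in nsPEF cells, 7 higher and 9 lower, beside 46.1% of all genes (24.6% higher and 21.6% lower), and 13 of them were called in the same direction in sham cells, which is 61.9% of the sham and 81.3% of the nsPEF list, beside 73.3% and 61.6% for all genes. For 24 h against 4 h these counts were 25 members in nsPEF cells (10 higher and 15 lower, beside 63.8% of all genes, 32.7% higher and 31.1% lower), of which 21 were shared (91.3% of the sham and 84.0% of the nsPEF list, beside 84.0% and 86.1% for all genes). These directions turned with the scaling too: quantile normalization gave 16 higher and 10 lower, the percentile over probes above background on all arrays 15 and 11, and the spike-in RNA 22 and 3, and for 24 h against 0 h the spike-in RNA gave 29 and 1. No member was called in opposite directions in sham and nsPEF cells in any of these 3 comparisons.

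Differences between nsPEF and sham cells at the same time were few and small. At 0 h none of the 34 members was called by limma (3 had an unadjusted p under 0.05), beside 0.0831% of all genes (0.0297% higher and 0.0534% lower). At 4 h 1 member, Atg13, was lower in nsPEF cells, beside 4.31% of all genes (1.74% higher and 2.57% lower). At 24 h Wipi1, Npc2 and Lamp2 were lower, beside 6.44% of all genes (2.55% higher and 3.88% lower). The members called higher numbered 0 at each time. Over all times together Atg13 and Wipi1 were called, both lower, beside 10.8% of all genes (4.06% higher and 6.73% lower). The interaction of time and treatment was called for 0 members by limma (9 had an unadjusted p under 0.05), beside 0.398% of all genes, and in no member was the difference between nsPEF and sham shown to change with time.

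**Figure D4:**
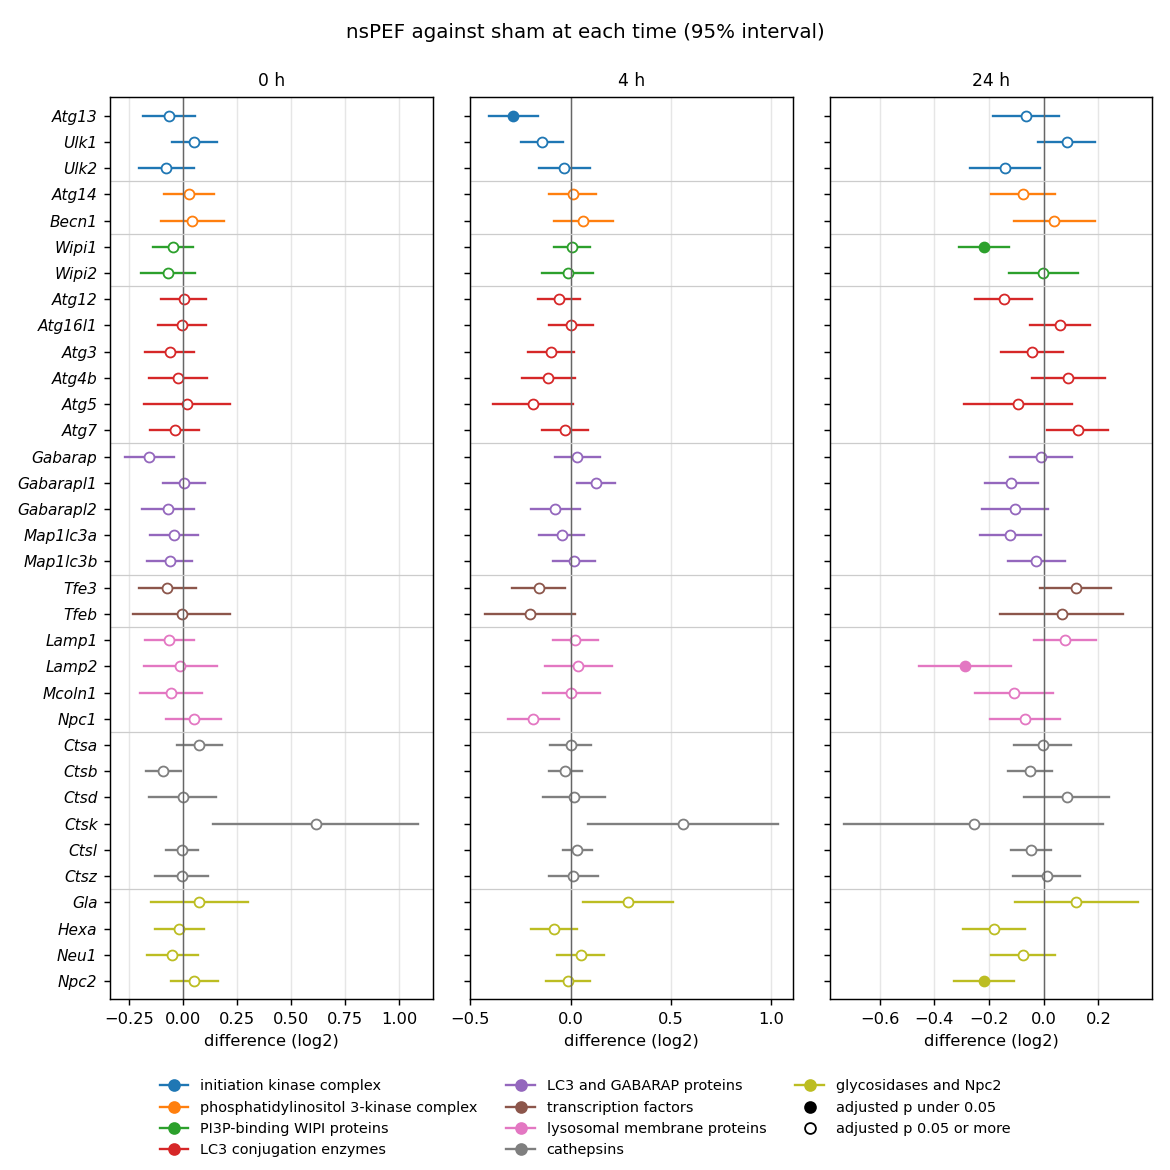
Differences between nsPEF and sham cells at 0, 4 and 24 h for the 34 members, on the log2 scale relative to each array's 75th percentile, with 95% confidence intervals from limma; filled points have an adjusted p under 0.05 and the x axes differ. The filled points are Atg13 at 4 h and Wipi1, Npc2 and Lamp2 at 24 h, all to the left of 0, and Ctsk has the widest intervals.

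At 4 h Atg13 had values of 1.48, 1.35, 1.34 and 1.54 in sham cells and 1.12, 1.13, 1.07 and 1.26 in nsPEF cells. Every nsPEF array lay below every sham array. The difference was -0.29 ± 0.058 (SE), adjusted p = 0.0131 (95% interval -0.41 to -0.16), a 1.22-fold lower signal, with a two-sided exact permutation p of 0.0286, the smallest that 4 against 4 arrays can give. At 0 h and 24 h the differences were -0.066 and -0.065, with overlapping arrays, and over all times -0.14 ± 0.033 (SE), adjusted p = 0.0162. At 24 h Wipi1 had values of 2.59, 2.71, 2.70 and 2.66 in sham cells and 2.45, 2.44, 2.50 and 2.40 in nsPEF cells, again without overlap. The difference was -0.22 ± 0.044 (SE), adjusted p = 0.00902 (95% interval -0.31 to -0.13), and it was 0.0067 at 4 h, when Wipi1 was at its lowest in both treatments. The second Wipi1 probe gave -0.21 at 24 h (adjusted p = 0.158). Over all times the difference in Wipi1 was -0.086 ± 0.025 (SE), adjusted p = 0.0384.

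At 24 h Npc2 had values of 3.47, 3.41, 3.44 and 3.34 in sham cells and 3.32, 3.07, 3.25 and 3.15 in nsPEF cells. The groups did not overlap, with nsPEF below, and the difference was -0.22 ± 0.052 (SE), adjusted p = 0.0214 (95% interval -0.33 to -0.11). Lamp2 had values of 3.77, 3.78, 3.80 and 3.52 in sham cells and 3.61, 3.34, 3.40 and 3.38 in nsPEF cells. Replicate 4 of the sham cells lay apart from its group, and within the range of the nsPEF arrays. The difference was -0.29 ± 0.081 (SE), adjusted p = 0.0442 (95% interval -0.46 to -0.12), and the second Lamp2 probe gave -0.17 ± 0.046 (SE), adjusted p = 0.034. The main probes of Npc2 and Lamp2 lie in rows 18 and 13 of the 384 rows of the array, in the 48 rows at its edge, and when values were centred by row, with medians over bright probes alone, they remained called, at -0.23 and -0.30 (adjusted p = 0.0141 and 0.0308), while Atg13 at 4 h did not, at -0.21 (adjusted p = 0.0682). With medians over all probes of the rows, the differences were -0.60 for Npc2 and -0.67 for Lamp2 at 24 h (adjusted p = 0.000146 and 0.000515). Npc2 was then also called at 0 h and 4 h, at -0.29 and -0.45 (adjusted p = 0.0431 and 0.00108), and Lamp2 at 4 h, at -0.39 (adjusted p = 0.0182).

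**Figure D5:**
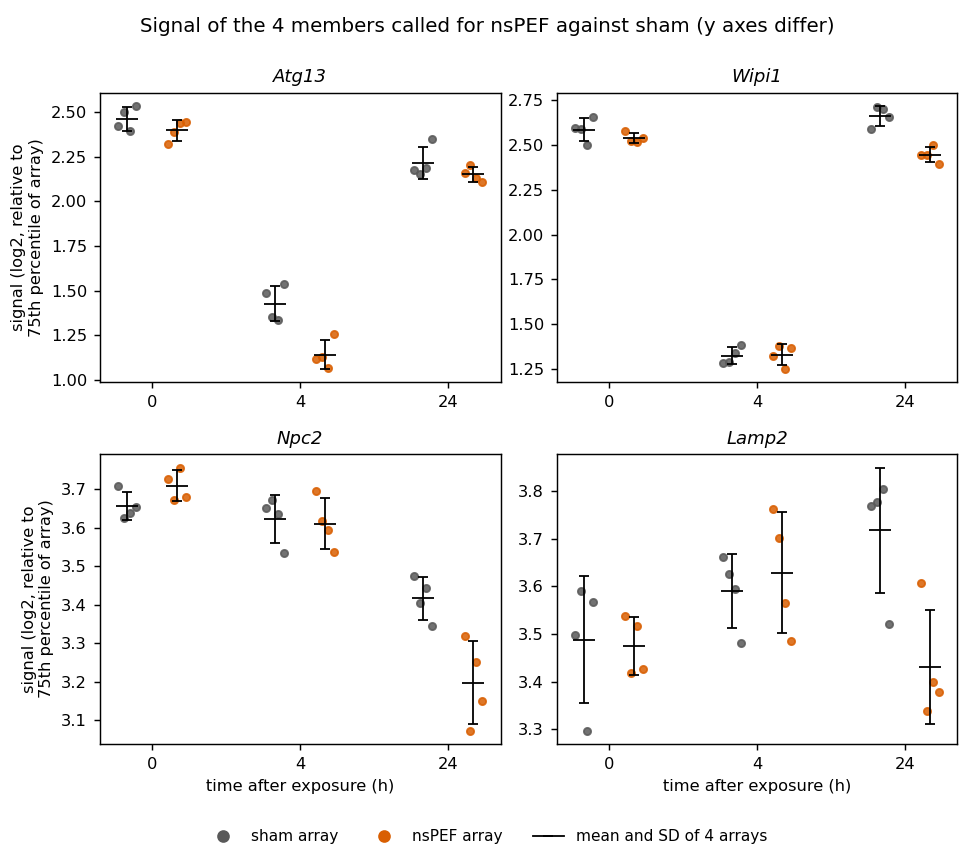
Signal of Atg13, Wipi1, Npc2 and Lamp2 on each array at 0, 4 and 24 h, log2 relative to the array's 75th percentile; points are arrays (grey, sham; orange, nsPEF), lines the mean and SD of 4, and the y axes differ. For Atg13 at 4 h and Wipi1 and Npc2 at 24 h the nsPEF points lie below all sham points, and for Lamp2 at 24 h 1 sham point overlaps with them.

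These 4 calls rested on the spread shared by all groups. Fitted to the 8 arrays of the time point alone, Atg13, Wipi1, Npc2 and Lamp2 had adjusted p of 0.128, 0.0997, 0.147 and 0.149. Under scaling on the spike-in RNA the difference in Atg13 was -0.075 (adjusted p = 0.483), with 14 other members called higher at 4 h. In that scaling 8149 of all 37687 tested probes were called at 4 h. The median difference was then 0.19 for all genes and 0.20 for the members. The share of probes well above background was 51.4% to 57.5% on nsPEF and 57.6% to 62.2% on sham arrays, and the part of this in the results was not tested. The smallest adjusted p among the other members was that of Hexa at 24 h, with -0.18 (adjusted p = 0.0578). Ctsk, with differences of 0.61 at 0 h, 0.56 at 4 h and -0.26 at 24 h, had the largest differences among the members at 0 h and 4 h, and passed the test at no time (adjusted p = 0.332, 0.165 and 0.528). For the conjugation enzyme Atg16l1, with the largest change over time, the 95% interval of the difference between nsPEF and sham was -0.11 to 0.11 at 4 h. That interval depended on the scaling. The difference was 0.21 with the spike-in RNA (adjusted p = 0.0455) and -0.43 when centred by row over all probes (adjusted p = 0.000262), and the probe lies in row 17, at the edge of the array.

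In the wider lists nsPEF cells at 24 h had lower signals of 7 of 34 other lysosomal hydrolases and higher signals of 0, a share of 20.6% beside 6.44% of all genes (3.88% lower). Among them, Arsa and Manba were lower by 0.29 and 0.27. Of 17 receptors 3 were lower, Ccpg1 by 0.49, Pink1 by 0.29 and Ncoa4 by 0.17, and none higher, a share of 17.6%. The remaining lists, with 3.85% to 8.33% called, lay near the share of all genes. List shares at 24 h are given for the main fit only, and calls over all tested probes moved with the setting. They numbered 1986 of 37687 in the main fit, 626 with normexp background correction and 577 with the spike-in RNA. Fitted to the arrays of 24 h alone, they numbered 28. Some settings gave more, such as 7478 with array weights and 5395 when centred by row over all probes. Laptm4a and Scarb2, of the 24 other membrane proteins and activators, were lower by 0.21 and 0.21, Atp6v1a of the V-ATPase by 0.25, Fnip1 by 0.37 and Pik3r4, a subunit of the lipid kinase complex of Becn1, by 0.19. Mlst8, a subunit of mTORC1, was 0.27 higher. At 4 h Sqstm1, which had risen in sham cells, was 0.28 higher in nsPEF cells (adjusted p = 0.0169), and Atg16l2, Atg2a and Atp6v0a2 were lower by 0.33, 0.23 and 0.25. These 4 were all the genes of the 6 lists called at 4 h, when 4.31% of all genes were called. At 0 h 0 genes of these 6 lists were called by limma, beside 8 with an unadjusted p under 0.05.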

How the data were processed

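RNA of 24 cultures in 6 groups was hybridized by the authors to one-colour Agilent arrays with spike-in RNA and read with Agilent Feature Extraction 12.0, per the labels. In the deposited scanner text each of 59305 spots other than controls has a processed signal intensity, background-subtracted and detrended but not scaled between arrays. The authors also deposited log2 values, shifted to the 75th percentile with each probe's median subtracted, and these were used as an alternative. Their column medians ran from -0.20 to 0.29, and 0 columns were left over. Here unmarked spots were averaged per probe, the log2 of the array's 75th percentile over spots (300.3 to 787.2 in signal units) was subtracted, and probes well above background on at least 2 of 4 arrays of any group were tested, which kept 37687 of 56605. Saturated spots numbered 0, and no spot of a member was marked. The number of arrays limits the precision.

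Files were read with data.table (version 1.17.8) under R 4.3.3. A mean for each group was fitted to all 24 arrays by limma (version 3.58.1), and p-values were adjusted by Benjamini-Hochberg over all tested probes. Exact permutation tests are two-sided. Code was tested on simulated data. The labels name biological replicates but not how cultures were separated, so p-values measure the spread between these samples. Genes were named through the RefSeq transcripts (GRCm38.p6) of 34566 probes. Values on every array are given for members called for nsPEF against sham and for the 4 largest rises and falls in sham cells, and from the other lists the 2 largest rises and falls at 4 h and up to 3 genes in each direction called for treatment, of which 1 gene is not reported here. Members, lists and naming rules were chosen with earlier results of these data known. The paper states that the tests of a biological replicate ran in parallel on a shared cell suspension, so sham and nsPEF arrays may be paired. The labels do not say whether equal numbers mark such pairs. Deviations of same-numbered arrays of the same time had a median correlation of 0.046 (12 pairs). For different numbers it was -0.0062 (180 pairs). No pairing was used in the main fit, and a block for the replicate number was an alternative. Alternatives were other scalings, background corrections, filters, probe summaries, weights, the paper's plain analysis of variance, a replicate block, the row of the spot, and leaving out arrays.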

Additional observations from a re-analysis of the deposited data

Results flagged for a closer look

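Within the groups of 4 arrays, 11 of 204 sets of member values had 1 array apart from the other 3 by Dixon's criterion, which chance alone gives in about 1 in 20 groups. On replicate 4 of S4 these were Ctsd (3.78), Gla (6.33) and Mcoln1 (2.19), and on replicate 4 of S24 they were Ctsz (3.97), Lamp2 (3.52) and Map1lc3a (0.042). The others were Ctsz on replicate 3 of S4 (3.70), Lamp1 on replicate 1 of S0 (5.94), Neu1 on replicate 4 of E0 (1.82), Atg3 on replicate 1 of E4 (3.01) and Ctsb on replicate 2 of E24 (5.45). Lamp2 on replicate 4 of S24 lay below the next lowest array of that group (3.77), and without that array the difference between nsPEF and sham at 24 h was -0.35 (adjusted p = 0.0185).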

How the results depend on the processing

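Of the counts of members called between times, those at 24 h against 0 h moved furthest, with the spike-in RNA, and the counts for nsPEF against sham were small and moved in several settings. With the spike-in RNA as the scale, members called for nsPEF against sham numbered 14 at 4 h, 1 at 24 h and 7 over all times, in place of 1, 3 and 2, those called at 24 h against 0 h numbered 33 in sham and 30 in nsPEF cells, and 2 were called for the interaction. Gabarapl1, Map1lc3a and Ulk2 at 24 h in sham cells then turned to 0.22, 0.18 and 0.36, and Wipi1 over all times to 0.024. At 4 h the count for nsPEF against sham was 2 with quantile normalization, with the floor and with the deposited log2 values, and 0 with only the arrays compared. At 24 h it was 0 with normexp and with only the arrays compared, 5 with the mean of a gene's probes and 7 with array weights. Over all times it was 1 with quantile normalization, 0 with the percentile over probes well above background on all arrays, 4 with the floor and with plain analysis of variance, 6 with the deposited values and 5 with weights, and the weights gave 3 for the interaction. Centred by the row of the spot, the counts were 2 at 0 h, 12 at 4 h, 8 at 24 h and 16 over all times. Calls over all 37687 tested probes moved too. They numbered 39, 1312, 1986 and 3505 in the main fit at 0, 4 and 24 h and over all times. Centred by row they were 2223, 6248, 5395 and 10103. With the spike-in RNA they were 464, 8149, 577 and 7538, with weights 304, 1703, 7478 and 5724, and with the deposited values 36, 1771, 2371 and 4952. The floor gave 6666 at 4 h and 10247 over all times. Between times, at 24 h against 0 h, the spike-in RNA gave 29312 probes in sham and 27409 in nsPEF cells, in place of 13817 and 15996. At 24 h against 4 h it gave 27454 and 23538, in place of 21685 and 21386. Centred over bright probes only, a setting chosen after seeing the data, the count of members for nsPEF against sham over all times was 0. At 4 h the count was 1 as in the main fit, but that member was called higher and was not Atg13. The causes were not tested.

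Leaving out 1 array, or 1 replicate number in all groups, gave 0 to 1 members at 4 h, 0 to 4 at 24 h, 0 to 3 over all times and 0 to 2 for the interaction. Atg13 at 4 h was lost without replicate number 1, 2 or 3, and Wipi1 at 24 h without 2, 3 or 4. Lamp2 at 24 h was lost in 18 of 28 such fits, Npc2 in 8, and Wipi1 over all times in 16. The count at 24 h was 1 without replicate 1, 2 or 3 of S24 or replicate 2 or 4 of E24, and the interaction's 2 came without replicate 1 of E24. Same-numbered arrays of different groups correlated between -0.065 and 0.0998 (60 pairs), and 11 of 24 arrays correlated best with their own number. With the replicate number as a block, the counts for nsPEF against sham were 0, 1 and 3 at 0, 4 and 24 h and 2 over all times.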
